A study of Homo sapiens with 4 samples.

Results

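The genes described here are TP53INP1 and 8 classical target genes of p53, namely CDKN1A, MDM2, SESN1, GDF15, FAS, BTG2, ZMAT3 and TP53I3. They were taken from a list of names, and every probe set that the platform annotation gives to exactly 1 of them was used. This found 29 probe sets for 8 of the 9 genes, out of 54675 probe sets and 19775 named genes on the array. BTG2, an antiproliferative gene, had no such probe set and was not analysed here.

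The cells were PLC8024, an established human hepatocellular carcinoma line, separated on a flow cytometer for the surface protein CD133. This gave CD133+ cells, in which liver tumour-initiating cells have been found enriched, and CD133- cells. No genotype change or treatment is labelled, and both populations came from this single line. Each population was deposited as 1 column of MAS5 intensities, on a linear scale, and 1 column of RMA values, on a log2 scale, which makes 4 samples. The 2 processings are not replicates, so no value below has an error between sorts or cultures, no test was possible, and the number of arrays limits the precision. In sorted populations measured in bulk, fewer cells with a transcript and less of it per cell cannot be told apart.

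p53 is a transcription factor that is held low by MDM2, a ubiquitin ligase which is itself a p53 target, and is stabilised by DNA damage and other stress. Its targets stop the cell cycle (CDKN1A, BTG2), promote cell death (FAS, TP53I3), restrain growth signalling (SESN1) or bind RNA (ZMAT3). GDF15 is a secreted stress cytokine. TP53INP1 is a p53-induced nuclear protein that works with the kinases HIPK2 and PRKCD and also binds LC3-family proteins of autophagy. In liver tumour-initiating cells TP53INP1 has been studied as a target of the microRNA miR-130b, and in other tumours as a target of miR-155.

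Neither microRNA was read out by the values used here. Their mature sequences are shown because TP53INP1 is discussed through them, with the seed, bases 2 to 8, in capitals. They are from RefSeq on GRCh38.p14, where miR-130b-3p lies at chr22:21653354-21653375 and miR-155-5p at chr21:25573983-25574006, both on the plus strand.
hsa-miR-130b-3p: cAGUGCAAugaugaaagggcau
hsa-miR-155-5p: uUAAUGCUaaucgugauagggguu
The seed of miR-130b-3p is shared by 6 mature names of the RefSeq table, itself included, and that of miR-155-5p was found in that name alone.

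p53 binds DNA as a pair of half-sites, each with a central core of 4 bases. RefSeq start-site windows of GRCh38.p14, from 250 bases before to 50 after a start, were searched for the p53 half-site consensus as 2 copies in a row without a spacer, with at most 2 mismatches over 20 bases. The consensus reads the same on both strands. There were 16 windows for 8 of the 9 genes, BTG2 included. TP53INP1 had no window and was therefore not searched, and sites outside the windows were not searched for any gene. A match was held by 3 of the 16 windows and so by 2 of the 8 genes, FAS and MDM2. In the whole set of windows used here, 0.649% of 35116 windows and 0.820% of 27305 genes held one. The match of FAS lies at chr10:88991309-88991328, at position -122 from a start within the gene. That of MDM2 lies at chr12:68808923-68808942, at positions -94 and -101 from 2 neighbouring starts. Both are on the plus strand and are shown because they are the stretches through which p53 is classically described to act on these genes, with the 4-base cores in capitals.
FAS: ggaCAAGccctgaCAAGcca
MDM2: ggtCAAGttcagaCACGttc
A match is a description of the sequence only, and binding was not measured.

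The populations differed in the sorted marker as labelled. PROM1, which encodes CD133, had RMA values of 10.35 in CD133+ against 6.04 in CD133-. A probe set counted as above the floor if, in whichever population it was brighter, it was at or over the RMA column median of 5.16 (CD133+) or 5.14 (CD133-). Where a gene had several probe sets, the one brightest on average in RMA stood for it. A call of higher or lower required a probe set above the floor and a change of 2-fold or more, in one direction, by both RMA and MAS5.

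None of the p53 targets with a probe set, nor TP53INP1, was called in either direction. Of the 8 genes 7 were above the floor, all but FAS. Of all genes above the floor, 2.25% were called higher and 1.09% lower, so that a count of 0 among 7 is near the background. The RMA differences of the 7 genes, CD133+ minus CD133-, ran from -0.17 to 0.44 with a median of -0.06, against a median of 0.00 over all 13116 genes above the floor. All 7 had an absolute RMA difference under 0.5, as did 84.8% of all genes above the floor. The SD of the gap between the RMA differences of 2 probe sets of one gene was 0.35 over 6170 genes. With the fold lowered to 1.5 still none of the 7 was called, against 5.32% of all genes higher and 4.17% lower, or 9.49% in all. Among the probe sets that stood for the 7 genes, that of TP53I3 alone had an absolute RMA difference over 0.35. Among their further probe sets above the floor, 2 of MDM2 also did, of which 217373_x_at had a CD133+ value under the floor. The SD of 0.35 is that of a gap between 2 differences, so it is not the error of a single difference. It also leaves out any variation between sorts.

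**Figure D1:**
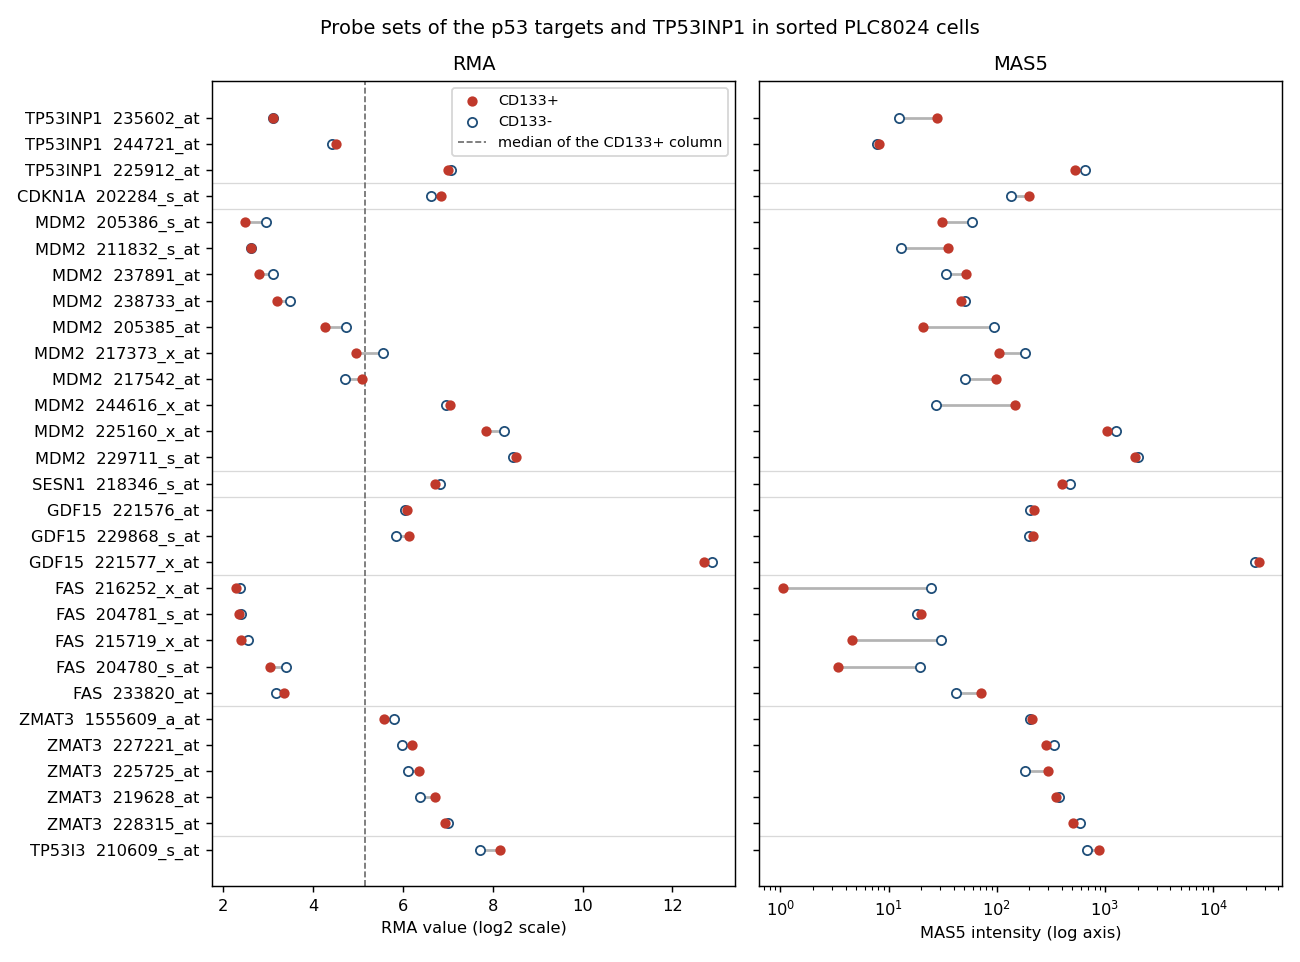
RMA values on the log2 scale (left) and MAS5 intensities on a log axis (right) of all 29 probe sets, with CD133+ as filled and CD133- as open points and a grey line joining them. The dashed line is the median of the CD133+ RMA column, 5.16, and the FAS points all lie to its left, while the long grey lines in MAS5 mostly join low intensities.

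TP53INP1 had 3 probe sets, of which 1 was above the floor. That probe set, 225912_at, had RMA values of 7.01 in CD133+ against 7.06 in CD133-, and MAS5 intensities of 529.7 and 657. The RMA difference was -0.06 and the MAS5 log2 ratio -0.31, both slightly to the CD133- side. Of all genes above the floor, 15.3% had a smaller absolute RMA difference. The low probe set 244721_at had RMA values of 4.52 and 4.43 and MAS5 intensities of 8.08 and 7.78. The other low one, 235602_at, had an RMA value of 3.10 in both populations, and MAS5 intensities of 27.9 in CD133+ and 12.4 in CD133-. Its MAS5 log2 ratio of 1.17 thus came from 2 intensities below the median of their columns, 86.0 and 86.1, and had no counterpart in RMA. The probe sets of TP53INP1 therefore gave no called difference in either direction.

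The partners of TP53INP1 were read on the same arrays. HIPK2, the kinase that phosphorylates p53, had RMA values of 5.45 in CD133+ against 5.37 in CD133-, a difference of 0.07. Both values lay near the floor. Its MAS5 intensities were 42.2 and 138.7, a log2 ratio of -1.72. PRKCD, a protein kinase C, had an RMA difference of -0.40 with a MAS5 log2 ratio of -0.65. TP53INP2, the close relative that also acts in autophagy, had values of 7.31 and 7.52 and an RMA difference of -0.22. Of the 11 partners and LC3-family genes above the floor none was called, and their median RMA difference was 0.00. The median of their MAS5 log2 ratios was -0.65, so the medians of the 2 processings disagreed, in a list that held genes near the floor. SQSTM1, the autophagy receptor p62, had an RMA difference of -0.74 with a MAS5 log2 ratio of -0.79. GABARAP had an RMA difference of 0.25, and SPARC, a matrix protein near the floor, one of -0.39.

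CDKN1A, which encodes the CDK inhibitor p21, had RMA values of 6.84 in CD133+ against 6.62 in CD133-. Its MAS5 intensities were 199.5 and 136. The RMA difference of its 1 probe set was 0.22 and the MAS5 log2 ratio 0.55, both to the CD133+ side and both short of 2-fold. The genes around p21 did not pass the call either. Of 13 p21 partners and CDK inhibitors above the floor none was called, and their median RMA difference was 0.29. Of the 13, 10 had an RMA difference above 0, against 48.2% of all genes above the floor. CDKN2A, whose transcripts encode the CDK inhibitor p16 and the MDM2 inhibitor ARF, had RMA values of 8.92 in CD133+ against 7.97 in CD133-. Its RMA difference of 0.95 missed 2-fold, its MAS5 log2 ratio was 1.06, and its other probe set above the floor had an RMA difference of 1.59. RBL1 and RB1, pocket proteins that hold back E2F, had RMA differences of 0.71 and 0.65, and the G1 kinase CDK6 one of 0.54.

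Genes that p53 represses through p21 and the DREAM complex, mostly mitotic and replication genes, were all above the floor. None of the 22 was called, and their median RMA difference was -0.04. Of the 22, 9 lay above 0, against 48.2% of all genes above the floor. The mitotic kinases CDK1, AURKA and AURKB had RMA differences of 0.69, -0.61 and 0.51, and the replication factor MCM3 one of -0.40. The list thus held values on both sides and no common direction.

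MDM2, the inhibitor and target of p53, had 10 probe sets, of which 4 were above the floor. The one with the highest RMA value, 229711_s_at, had 8.53 in CD133+ and 8.44 in CD133-, with MAS5 intensities of 1889 and 2029. Probe set 225160_x_at had RMA values of 7.86 and 8.24 and MAS5 intensities of 1045 and 1269. The others above the floor were 217373_x_at, with 4.95 and 5.55, and 244616_x_at, with 7.05 and 6.96. Their RMA differences ran from -0.60 to 0.09 with a median of -0.15, so that the sign for MDM2 depended on the probe set and, for the highest one, on the processing. Probe set 244616_x_at had MAS5 intensities of 147 and 27.5, a log2 ratio of 2.42 against an RMA difference of 0.09. Probe sets ending in _x_at hold probes that can also match other transcripts, which touches 3 of these 4. The 6 probe sets below the floor had RMA values from 2.48 to 5.08.

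Other regulators of p53 were spread around 0. Of 20 above the floor 10 had an RMA difference above 0 and 10 below, the median was 0.01, and none was called. MDM4, the partner of MDM2, had values of 9.49 in CD133+ against 9.29 in CD133-. The RMA differences of its 5 probe sets above the floor ran from -0.47 to 0.33. CHEK2, the checkpoint kinase that phosphorylates p53, had an RMA difference of 0.75 with a MAS5 log2 ratio of 0.81. PPM1D, the phosphatase that switches p53 signalling off and is itself a p53 target, had an RMA difference of -0.73 with a MAS5 log2 ratio of -0.69. KAT5, an acetyltransferase of p53, had an RMA difference of 0.47.

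**Figure D2:**
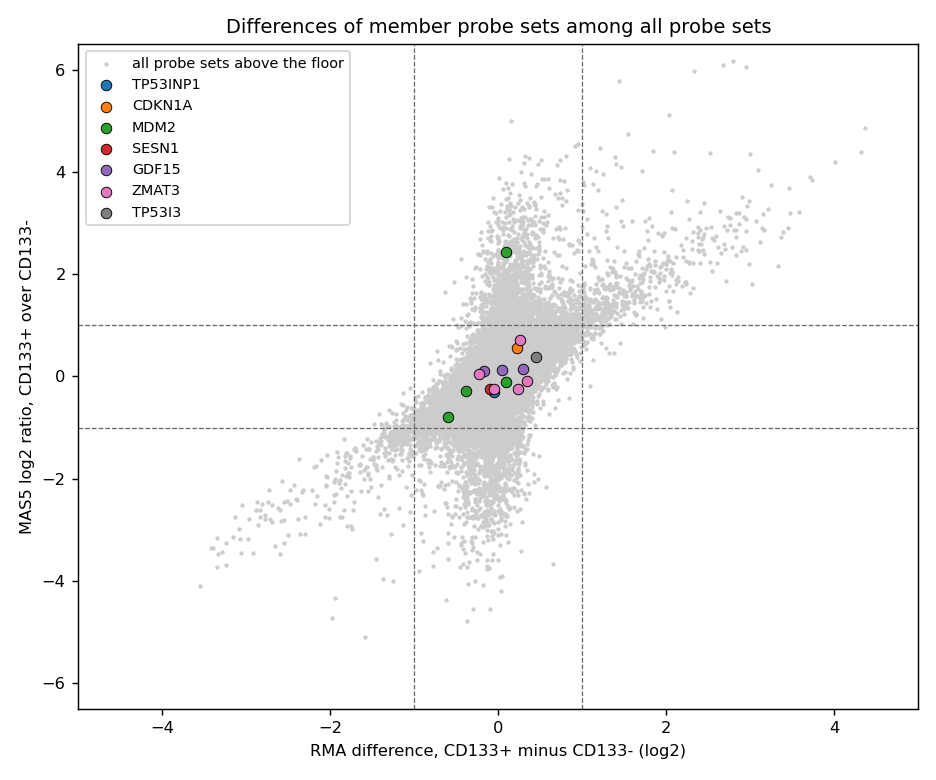
RMA difference (x axis, log2) against MAS5 log2 ratio (y axis), CD133+ over CD133-, of the 16 probe sets of these genes above the floor (coloured by gene) among all 28435 probe sets above it (grey). The dashed lines mark 2-fold, and 1 MDM2 point, at 0.09 and 2.42, passes it in MAS5 alone.

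SESN1, a sestrin that restrains mTORC1, had RMA values of 6.72 in CD133+ against 6.82 in CD133- and MAS5 intensities of 399 and 471 in its 1 probe set. The differences were -0.10 in RMA and -0.24 in MAS5. SESN2, its relative and a stress target in its own right, had values of 7.66 and 8.12, with a difference of -0.47 and one of -0.44 in its other probe set. Of 17 sestrin and mTORC1 control genes, all above the floor, 15 had an RMA difference below 0, against 49.9% of all genes above the floor. None of the 17 was called, and their median was -0.19. The AMP-activated kinase subunits PRKAA1 and PRKAB1 had RMA differences of -0.64 and -0.60, while PRKAA2 had 0.96. The 3 probe sets of PRKAA1 above the floor ran from -0.64 to 0.39 with a median of 0.16, so its sign depended on the probe set. CASTOR1, an arginine sensor, had -0.60.

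GDF15 had 3 probe sets, all above the floor. The highest, 221577_x_at, had RMA values of 12.71 in CD133+ against 12.88 in CD133- and MAS5 intensities of 26289 and 24454. Its RMA difference of -0.17 and MAS5 log2 ratio of 0.10 had opposite signs. Probe sets 221576_at and 229868_s_at had RMA values of 6.08 and 6.13 in CD133+ against 6.04 and 5.83 in CD133-. The RMA differences of the 3 probe sets ran from -0.17 to 0.29, so that their sign depended on the probe set. GDF15 also responds to amino acid and endoplasmic reticulum stress. In the list of unfolded protein and amino acid stress genes, 16 of 18 had an RMA difference below 0, against 49.9% of all genes above the floor, and the median was -0.40. Of the 18, 3 were called lower in CD133+, against 1.09% of all genes. These were CTH, a cysteine-making enzyme, at 2.56-fold lower in RMA, SLC7A11, which imports cystine, at 2.39-fold, and the stress-induced pseudokinase TRIB3 at 2.13-fold. ATF5 had an RMA difference of -0.93, but its 4 probe sets above the floor ran from -1.49 to 0.12. Among immediate-early and heat-shock genes 13 of 17 were below 0, the median was -0.44 and none was called, and FOS, DUSP1, KLF4 and ATF3 had -0.90, -0.86, -0.70 and -0.63. What part these stress genes have in the values of the p53 targets was not tested.

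FAS, a death receptor, was below the floor in all 5 probe sets. Its RMA values ran from 2.28 to 3.35 in CD133+ and from 2.37 to 3.40 in CD133-. Probe set 216252_x_at had MAS5 intensities of 1.06 in CD133+ and 24.5 in CD133-, and 204780_s_at had 3.38 and 19.6. The MAS5 log2 ratios of these low probe sets, -4.53 and -2.53, stood against RMA differences of -0.09 and -0.37. Probe set 233820_at went the other way, with 71.7 and 41.8. Over the 13 probe sets of all these genes that were below the floor, 6 passed 2-fold in MAS5 and 0 in RMA.

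The pathway downstream of FAS held 1 called gene among 10 above the floor, against 2.25% of all genes called higher. BID, which carries the death receptor signal to mitochondria, had RMA values of 8.50 in CD133+ against 4.92 in CD133-, the latter under the floor, and MAS5 intensities of 1710 and 185. Its RMA difference was 3.58 and the MAS5 log2 ratio 3.21, with no fold given because the CD133- level is not above the floor. In probe set 227143_s_at both populations were above it, with RMA values of 7.10 and 5.60, a difference of 1.5 and a MAS5 log2 ratio of 2.45. CASP8, the caspase that cleaves BID, had an RMA difference of -0.61, and its inhibitor CFLAR had 0.47. FAIM, a FAS inhibitor, had 0.41. Of the 10 genes of this pathway above the floor 5 lay on either side of 0, and the median was 0.02.

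ZMAT3, a zinc-finger RNA-binding protein, had 5 probe sets, all above the floor. In CD133+ their RMA values ran from 5.58 to 6.94, and in CD133- from 5.81 to 7.0. The highest, 228315_at, had 6.94 and 7.0 and MAS5 intensities of 500.7 and 591. Probe set 219628_at had RMA values of 6.71 and 6.38, yet MAS5 intensities of 353 and 377. The 5 RMA differences ran from -0.23 to 0.33 with a median of 0.23, while that of the highest probe set was -0.06, so no direction could be given for ZMAT3.

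TP53I3, a quinone oxidoreductase induced by p53 before cell death, had the largest RMA difference of the 7 genes. Its 1 probe set had RMA values of 8.16 in CD133+ against 7.71 in CD133-, and MAS5 intensities of 879 and 679.8. The RMA difference was 0.44 and the MAS5 log2 ratio 0.37. Of all genes above the floor, 81.4% had a smaller absolute RMA difference.

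Over all 16 probe sets of these genes above the floor, 9 had an RMA difference above 0 and 7 below. None was called, against 1.74% of all probe sets above the floor called higher and 1.09% called lower. At 1.5-fold 1 was called lower, MDM2 217373_x_at, whose CD133+ RMA value of 4.95 lay under the floor. Of all probe sets above the floor, 4.49% were called lower and 4.66% higher at 1.5-fold. RMA and MAS5 had the same sign in 11 of the 16, and in 76.8% of all probe sets above the floor. CDKN1A and TP53I3 lay to the CD133+ side in both processings, TP53INP1 and SESN1 to the CD133- side in both, and MDM2, GDF15 and ZMAT3 changed side with the processing or the probe set.

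The wider p53 pathway was read through 12 lists, which share some members with each other and hold 188 genes besides those above. Of these, 160 were above the floor, 4 were called higher in CD133+ and 0 lower, which is 2.5% against 3.34% of all genes called in either direction. Their median RMA difference was -0.04, and 74 of the 160 lay above 0, against 48.2% of all genes above the floor. The called genes were BID, described above, and IGFBP3, PLAU and TP53TG1. The absence of lower calls depended on the rule. MAS5 alone gave 11 higher and 4 lower, but the share of all genes so called is not given here. A 1.5-fold call gave 10 higher and 11 lower, against 5.32% of all genes called higher and 4.17% lower. Without _x_at and _s_at probe sets the calls of IGFBP3, PLAU and TP53TG1, which rest on such probe sets only, were lost. BID was still called, and CDKN2A, not called in the main setting, was added. CDKN2A was also called with the median over probe sets, in MAS5 alone and at 1.5-fold.

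IGFBP3, a secreted binding protein of insulin-like growth factors, was 4.13-fold higher in CD133+ in RMA, with values of 12.43 and 10.38. Its MAS5 log2 ratio was 2.25 and the second probe set differed by 2.0 in RMA. PLAU, the urokinase gene, had an RMA difference of 1.40 with a MAS5 log2 ratio of 3.32, with a CD133- value of 4.64 under the floor, so no fold is given. Its second probe set was below the floor in both populations. These were the 2 called among 12 secreted and membrane p53 targets above the floor, against 2.25% of all genes called higher. The median of the 12 was 0.19. The natural killer cell ligands MICA and ULBP2 had RMA differences of 0.58 and -0.84.

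TP53TG1, a long noncoding RNA, was 2.02-fold higher in RMA, with values of 7.94 and 6.93, and its 3 probe sets had differences from 0.98 to 1.27. It was the 1 called among 13 growth arrest targets above the floor, against 2.25% of all genes called higher. The median of the 13 was -0.07. GADD45A, which arrests cells after DNA damage, had RMA values of 8.88 in CD133+ against 9.71 in CD133-, and CCNG1, cyclin G1, had 10.51 and 11.25. Their RMA differences of -0.83 and -0.74 lay to the CD133- side, as did their MAS5 log2 ratios of -0.90 and -0.73. CCNG2 had 0.40.

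Of 16 apoptosis targets above the floor none was called, and their median was -0.12. Of the 16, 6 lay above 0, against 48.2% of all genes above the floor. The BH3-only gene PMAIP1 had an RMA difference of -0.55, the apoptosome gene APAF1 0.44, TRIAP1, an inhibitor of apoptosis, -0.42, and SIVA1 0.41. The other probe set of APAF1 above the floor had -0.08. None of 9 DNA repair targets was called, and their median was 0.15. MGMT, which removes alkyl groups from guanine, had an RMA difference of 0.89 with a MAS5 log2 ratio of 1.17, while XPC, a damage sensor, had -0.58, ERCC5 0.45 and PCNA 0.31. None of 16 targets of metabolism, redox balance and autophagy was called, and their median was -0.14. CPT1C had an RMA difference of -0.76 and the autophagy kinase ULK1 one of -0.50.

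BTG2 acts through the CCR4-NOT deadenylase, and although BTG2 itself was not analysed, 10 of its relatives and partners were above the floor. None was called, and their median was -0.36. Of the 10, 7 lay below 0, against 49.9% of all genes above the floor. The deadenylase complex members CNOT8, CNOT6, CNOT7 and CNOT1 had RMA differences of -0.62, -0.60, -0.56 and -0.47.

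**Figure D3:**
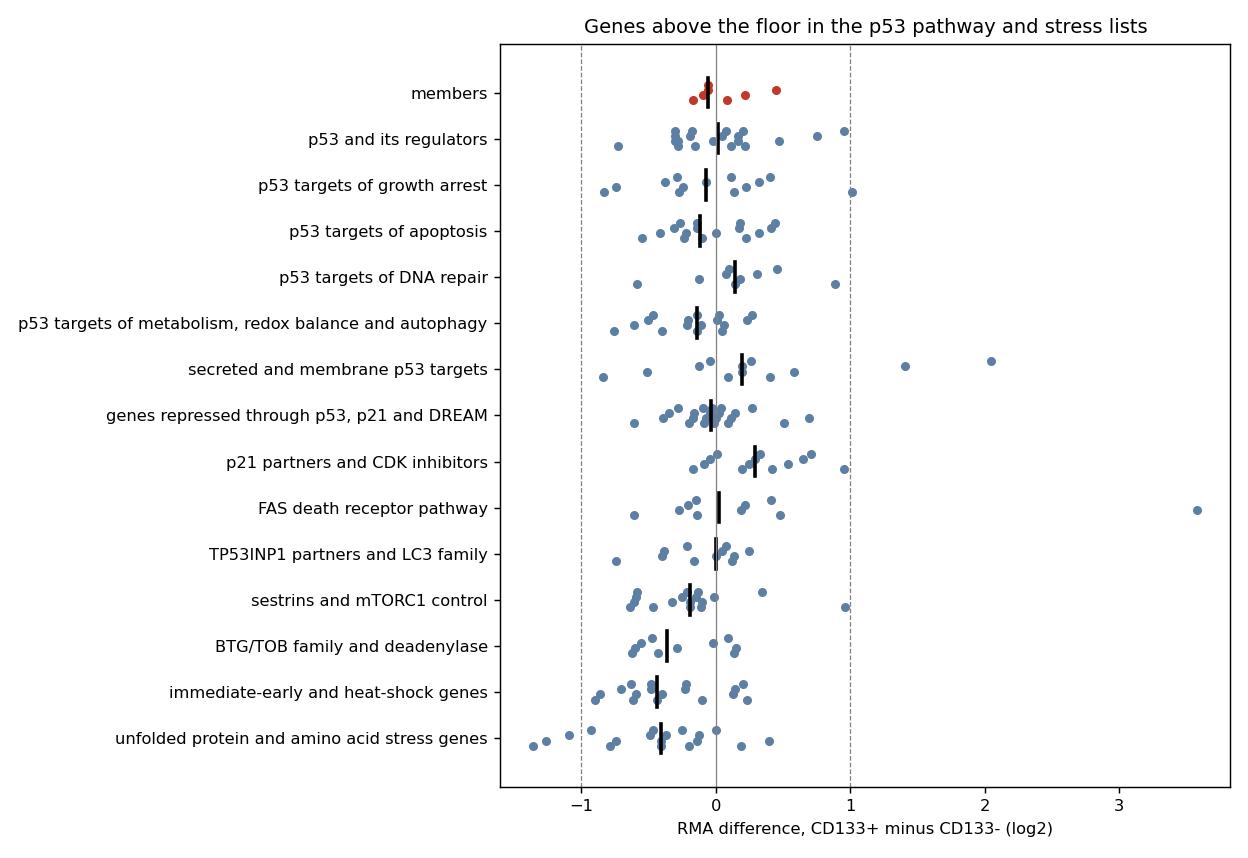
RMA difference (log2, CD133+ minus CD133-) of each gene above the floor, 1 row per list, with black bars at the list medians and dashed lines at 2-fold. The p53 targets and TP53INP1 (red, labelled members) lie between -0.17 and 0.44, and of the p53 and stress genes plotted BID, at 3.58 from a CD133- value under the floor, and IGFBP3, at 2.05, lie farthest from 0.

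Liver and other cell markers were read alongside. Of 11 hepatocyte and liver tumour markers above the floor, 4 were called lower in CD133+, against 1.09% of all genes above the floor. They were ALB, AFP, APOA1 and GPC3, with RMA differences of -3.42, -2.78, -1.80 and -1.23. The summed MAS5 intensity of the list was 181930 in CD133+ against 218420 in CD133-. Of the 9 leukocyte markers with a probe set, PTPRC, MS4A1, CD14 and NKG7 were below the floor. LYZ, the lysozyme gene, was the 1 called among the 5 above it, at 3.31-fold higher, against 2.25% of all genes called higher. Of 8 endothelial markers 7 were below the floor and PECAM1 was called lower at 3.38-fold, against 1.09% of all genes called lower. The 4 probe sets of PECAM1 above the floor had RMA differences from -1.96 to 0.17, with a median of -1.75. Of 9 fibroblast and stellate cell markers COL1A2, COL3A1, LUM and PDGFRB were below the floor and none was called, and none of 2 erythroid markers above the floor was called. In the same order of populations the summed MAS5 intensities were 10652 and 4402 for leukocyte, 343.4 and 1018 for endothelial, 1258 and 755.7 for fibroblast and stellate, and 216 and 216.5 for erythroid markers. LYZ alone gave 10257 and 4008 of the leukocyte sums and the other 8 markers 395 and 394. PECAM1 alone gave 268 and 913 of the endothelial sums and the other 7 markers 75.5 and 104.8. What part any of these cells or the liver markers have in the values of the p53 targets was not tested.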

How the data were processed

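Total RNA of sorted CD133+ and CD133- PLC8024 cells was labelled with biotin and hybridised to oligonucleotide arrays, per the labels' protocols. The authors deposited MAS5 intensity values on a linear scale and RMA log2 values, 1 column of each per population. MAS5, RMA and GCOS are named in the submitters' processing notes; versions, detection calls and the set of arrays normalized together: not given in the sources used here. The MAS5 intensity columns deposited had 2% trimmed means of 499.9, which is the form of global scaling.

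Probe sets were named through GEO's platform annotation, with symbols updated by gene ID from RefSeq (GRCh38.p14) for 41043 of the 41097 probe sets with 1 gene. The RMA difference was the main measure and the log2 ratio of MAS5 values the second, with Python 3.11.15, pandas 2.3.3 and numpy 2.4.6. No test was run, since there was 1 array per population and processing. How often the call rule errs in these arrays, near 2-fold or near the floor, was not tested. Besides the listed genes, the text names PROM1, MDM4, TP53INP2, HIPK2, PRKCD, every called gene of a list, and up to 4 genes per list with the largest absolute RMA difference above the floor; in the marker lists only called genes and those below the floor are named. Genes, lists and rules were chosen with earlier results of these data known.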

Additional observations from a re-analysis of the deposited data

How the results depend on the processing

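The processings and probe set choices were varied 1 at a time, and no called direction reversed. None of the p53 targets or TP53INP1 was called under any of the 9 alternatives in which it had a probe set above the floor. The alternatives were MAS5 alone, RMA alone for the call, MAS5 with a pseudocount of 50, a floor at the 75th percentile, no floor, the median over probe sets, no _x_at or _s_at probe sets, a 1.5-fold call and centred differences. CDKN1A and SESN1 were not above the 75th percentile floor, and only TP53INP1, GDF15 and ZMAT3 could be read without _x_at and _s_at probe sets. In 43 recomputed differences of these genes 0 moved by more than 0.35, the SD between probe sets of one gene, and 8 had the other sign. Their median ran from -0.10 to 0.04. Of their 16 probe sets, 1 was called higher in MAS5 alone and 1 with the pseudocount, which was MDM2 244616_x_at. At 1.5-fold 1 was called lower, MDM2 217373_x_at, with a CD133+ value under the floor, where the background is 4.49%. In the 12 p53 lists the counts were 11 higher and 4 lower in MAS5 alone, 2 lower with the pseudocount, 2 higher (BID and CDKN2A) without _x_at and _s_at probe sets, and 10 higher and 11 lower at 1.5-fold, where the background is 9.49% in either direction. The cause of these moves was not tested. Signal near background limits FAS and the low probe sets of MDM2 and TP53INP1. No paired analysis was possible because each group held 1 sample and no result came from a test.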

Other observations

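The RMA values of the 2 populations were equal to the last digit deposited in 3211 of 54675 probe sets, which is 5.87%. Of the 29 probe sets of the genes described here 2 were among them, TP53INP1 235602_at and MDM2 211832_s_at, both below the floor, while their MAS5 log2 ratios were 1.17 and 1.43. This was noticed after the values were seen.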
